A study of Homo sapiens with 30 samples.

Results

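MDM2, MDM4 and CPM (carboxypeptidase M) are 3 of the 58780 genes in the deposited count table of a precision run-on sequencing (PRO-seq) study of A549 cells, an established human lung adenocarcinoma line. They were picked by gene name with results of these data known. CPM was chosen by its rise after 7 days of the PRMT5 inhibitor GSK591 against untreated cells, MDM2 as a p53 target that rose in the same cells, and MDM4 as the relative of MDM2. Values of that contrast, and of others that use the GSK591 7-day libraries, are therefore given as a description with no test. All 3 genes passed the filter on low counts, which kept 22919 genes.

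In PRO-seq, RNA polymerases that are engaged on DNA extend their transcripts with labelled nucleotides, and the reads report where transcription is under way. The 30 libraries make 15 groups of 2 replicates. Cells were untreated, or received dexamethasone (Dex, a synthetic glucocorticoid, 100 nM) for 15 min or 3 h, alone or, at 3 h, together with 1 µM of an inhibitor. GSK591 inhibits PRMT5, and MS023 inhibits the Type I arginine methyltransferases. Each inhibitor was also given alone for 2, 4 or 7 days. In 4 further groups 7 days of an inhibitor preceded 15 min or 3 h of Dex. DMSO at 0.01% was present in all groups, the untreated cells included, and the same untreated libraries served every treatment time. Their titles carry the time 15 min, and no untreated library is labelled as matched to 3 h or to 2, 4 or 7 days. The labels do not say that the replicates are separate cultures, so p-values measure the spread between these samples, which may be technical. The study's title concerns PRMT5 and the release of mRNA from chromatin.

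As background, p53 is a transcription factor that is kept low by MDM2, an E3 ubiquitin ligase that marks it for degradation. MDM2 is itself a p53 target, which closes a negative feedback loop, and it is transcribed from an upstream promoter and from a p53-responsive promoter inside its first intron. MDM4 (also called MDMX) is a structurally related protein that binds p53, inhibits its activity and forms a complex with MDM2. CPM is a membrane-anchored metallocarboxypeptidase that removes basic residues from the ends of peptides, and it is known in lung epithelium.

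In GENCODE 29 on hg38, MDM2 (ENSG00000135679.23) spans chr12:68808176-68850686 on the plus strand, with 13284 exonic bases. CPM (ENSG00000135678.11) spans chr12:68842197-68971570 on the minus strand, with 7535 exonic bases. The genes lie tail to tail, and their bodies share 8490 bases (68842197 to 68850686). Their exons share 133 bases, from 68842197 to 68842329, which are annotated as untranslated region of MDM2 and as coding or untranslated sequence of CPM. That is 1.77% of the exonic length of CPM and 1.00% of that of MDM2. The longest exon block of CPM, of 5505 bases or 73.1% of its exonic length, begins 489 bases past the annotated end of MDM2. MDM4 (ENSG00000198625.12) lies elsewhere, at chr1:204516379-204558120 on the plus strand, with 11008 exonic bases and no exon shared with another gene.

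**Figure D1:**
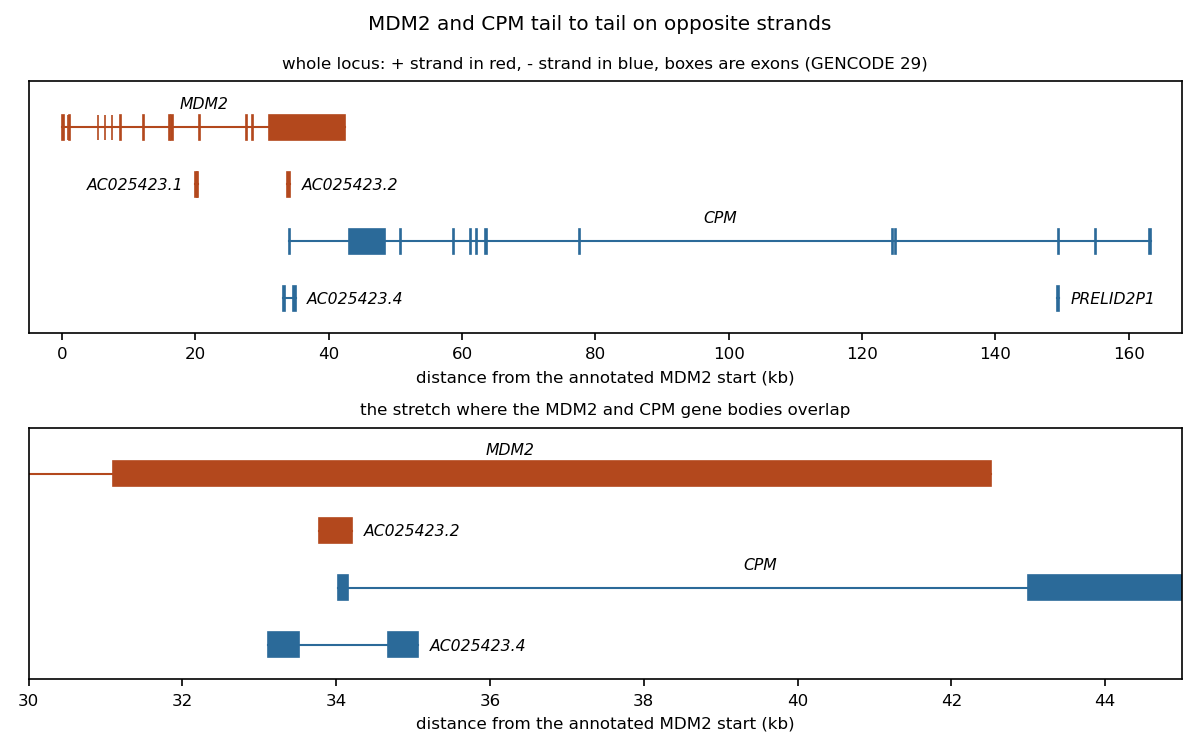
Exons (boxes) of MDM2, CPM and the small genes that overlap them, by distance in kb from the annotated MDM2 start, with the plus strand in red and the minus strand in blue. The upper panel shows both genes and the lower panel the stretch where their bodies overlap; the longest CPM exon block starts 489 bases past the end of MDM2.

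The promoters are shown because MDM2 and CPM rose together in several groups in the count table. The intronic MDM2 promoter is also the known p53-responsive one. RefSeq (GRCh38.p14) gave 4 promoter windows for MDM2, 3 for CPM and 1 for MDM4. The 250 bases before each start were searched for the p53 response element, taken as 2 adjacent decamer half-sites with no spacer and at most 3 mismatches. The element reads the same on both strands. It was found in 4.36% of the 35116 windows of this length and in 0.561% with at most 2 mismatches. Of the members' windows, those at the intronic MDM2 starts (68809017 and 68809024) held 2 matches, which do not overlap. They lie at 68808923 to 68808942 with 2 mismatches and at 68808961 to 68808980 with 3. No such match was found in the windows of the upstream MDM2 starts, of MDM4 or of CPM. The lines below give stretches outside annotated exons, chr12:68808842-68809001 for MDM2, chr12:68933203-68933362 (minus strand) for CPM and chr1:204516219-204516378 for MDM4, with the matches in capitals.
MDM2 intronic promoter: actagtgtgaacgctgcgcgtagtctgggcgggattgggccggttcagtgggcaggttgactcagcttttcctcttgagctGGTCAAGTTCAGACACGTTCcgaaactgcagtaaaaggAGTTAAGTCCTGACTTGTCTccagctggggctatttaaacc
CPM promoter: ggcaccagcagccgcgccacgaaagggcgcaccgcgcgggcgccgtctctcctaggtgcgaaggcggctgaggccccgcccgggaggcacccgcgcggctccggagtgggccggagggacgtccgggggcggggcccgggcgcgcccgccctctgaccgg
MDM4 promoter: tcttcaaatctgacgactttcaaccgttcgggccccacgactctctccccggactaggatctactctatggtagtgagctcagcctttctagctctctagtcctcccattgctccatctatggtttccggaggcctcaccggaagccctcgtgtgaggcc
A match describes these letters and is not a measured binding site. The glucocorticoid receptor element, at most 3 mismatches, was found in 9.17% of all windows and in 1 of the members' windows, that of the CPM start at 68932622, where it lies inside an annotated CPM exon.

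Total counts ran from 8441211 to 13069598 per library, of which mitochondrial and ribosomal RNA genes took 59.0% to 78.9%. MDM2 had 391 to 1674 counts per library, MDM4 83 to 296 and CPM 25 to 881. Epithelial markers (EPCAM, KRT8, KRT18, KRT7, CDH1) all passed the filter and summed to counts-per-million values of 368 to 1105 per library, and 4 antioxidant genes typical of A549 to 267 to 619. Fibroblast markers (3 of 4 passed) summed to 3.32 to 10.6, endothelial markers (2 of 3) to 0.208 to 2.24, immune markers (1 of 4) to 1.12 to 6.82 and surfactant genes (2 of 2) to 6.90 to 12.3. Levels below are counts-per-million values after TMM scaling, 1 per replicate. A fold change is called higher or lower when its adjusted p is under 0.05 in edgeR's quasi-likelihood test with Benjamini-Hochberg adjustment over all 22919 genes.

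Per kilobase of exonic length, the median counts-per-million level over the 30 libraries was 5.41 for MDM2, 1.41 for MDM4 and 1.46 for CPM. Whether only exons were counted is not given. The gene bodies span 42511, 41742 and 129374 bases, so the likeness of MDM4 and CPM here depends on the length used. The highest group mean was 4.03 times the lowest for MDM2, 1.82 times for MDM4 and 31.1 times for CPM. MDM2 and CPM each lay above both untreated libraries in both replicates of 12 of the 14 treated groups and below them in 1, MS023 for 2 days. MDM4 did so in 2 groups and lay below in 1. All these counts use the same 2 untreated libraries, and they include the group by whose rise CPM and MDM2 were chosen. With 2 libraries in each group such separation can also arise by chance. The share of all genes that separate in this way was not determined, so the counts are a description. By the ratio of the highest to the lowest group mean, MDM2 and CPM spanned a wider range than MDM4. The libraries are of bulk cells, so a change in every cell and a change in a share of the cells cannot be told apart.

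**Figure D2:**
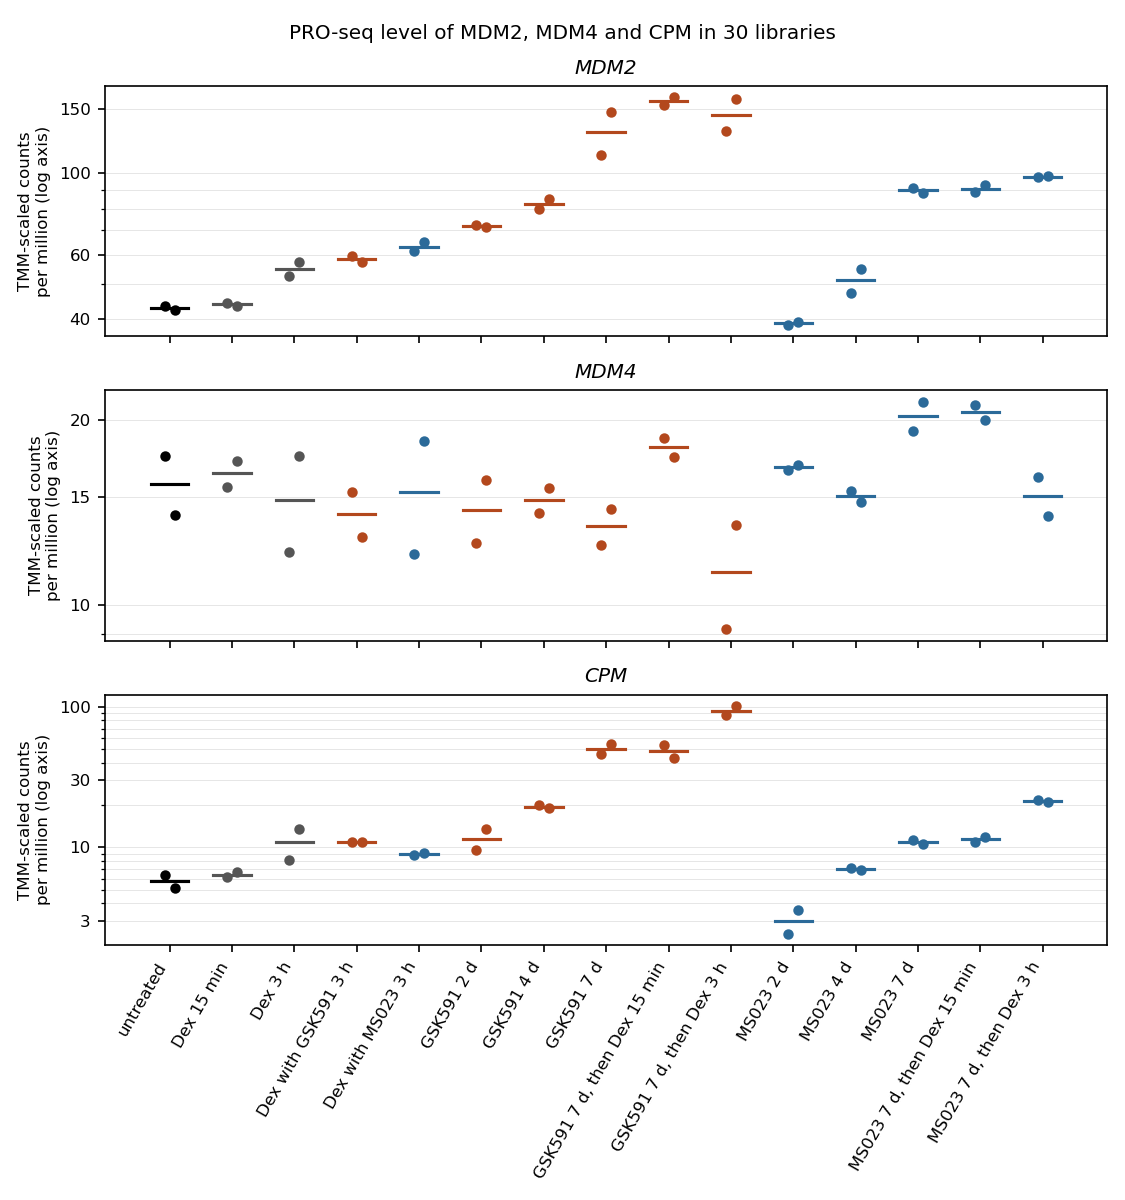
TMM-scaled counts-per-million levels (log axis) of MDM2, MDM4 and CPM in the 15 groups, with 1 point per replicate and a line at the group mean; groups with GSK591 are red, with MS023 blue, with Dex alone grey and untreated black. CPM runs from 3.02 after 2 days of MS023 to 93.9 after 7 days of GSK591 and 3 h of Dex, and MDM4 stays between 11.3 and 20.6.

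MDM2 rose at each time tested in GSK591. From 43.5 and 42.3 in untreated cells it went to 72.3 and 71.4 at day 2 and to 79.7 and 84.8 at day 4, and at day 7 it stood at 112 and 147. None of these groups overlapped. Against untreated cells MDM2 was 1.67-fold higher at 2 days (log2 0.74, SE 0.11, adjusted p = 2.91e-05, edgeR's quasi-likelihood test) and 1.92-fold higher at 4 days (log2 0.94, SE 0.11, adjusted p = 1.41e-08). Of all genes tested, 5.64% were called at 2 days and 17.2% at 4 days. These tests share the untreated libraries with the 7-day contrast, in which MDM2 was 3.02-fold higher (log2 1.59, SE 0.11, a description). Without GSK591 7-day replicate 2 that value was 1.39. All tests of MDM2 against untreated cells share the untreated libraries with the 7-day contrast. This includes those with MS023 and with Dex alone below, so these tests of MDM2 are not independent of the choice.

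The comparisons after Dex share no library with the contrast behind the choice of genes. The choice was made with results of these data known, so they are still no independent evidence. With 7 days of GSK591 and then 15 min of Dex, MDM2 stood at 153 and 161, against 44.3 and 43.5 with 15 min of Dex alone. After 3 h of Dex it stood at 130 and 159, against 52.5 and 57.1. The pretreated libraries were above the Dex libraries in every case. The difference was 3.58-fold at 15 min (log2 1.84, SE 0.11, edgeR adjusted p = 7.96e-18) and 2.64-fold at 3 h (log2 1.40, SE 0.11, edgeR adjusted p = 6.66e-14). In these comparisons 15.3% and 13.6% of genes were called, respectively.

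In MS023, MDM2 was called higher at 7 days and not at 2 or 4 days with TMM scaling. With total counts as the only scaling it was called higher at 2 days too, where the direction turned (log2 0.54, beside a median of 0.68 over all genes), and at 4 days (0.99, beside 0.74). The day 2 libraries had 38.6 and 39.3, those of day 4 had 47.0 and 55.0, and those of day 7 had 91.4 and 88.3. The 2-day libraries lay just below the untreated ones and the 4-day libraries just above them. The fold change was 0.909 at 2 days (log2 -0.14, SE 0.12, edgeR adjusted p = 0.498), 1.19 at 4 days (log2 0.25, SE 0.11, edgeR adjusted p = 0.136) and 2.09 at 7 days (log2 1.07, SE 0.11, edgeR adjusted p = 6.06e-10), with 10.4%, 14.2% and 13.6% of genes called. After Dex, MDM2 pretreated with MS023 for 7 days had 89.1 and 92.6 at 15 min and 97.5 and 98.4 at 3 h. Those were 2.07-fold (log2 1.05, SE 0.11, edgeR adjusted p = 1.03e-09) and 1.79-fold (log2 0.84, SE 0.11, edgeR adjusted p = 2.87e-07) above Dex alone, where 15.3% and 11.5% of genes were called.

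Set directly against each other, GSK591 gave the higher MDM2 level at each matched time. The ratio of GSK591 to MS023 was 1.84 at 2 days (log2 0.88, SE 0.11, edgeR adjusted p = 6.74e-07) and 1.61 at 4 days (log2 0.69, SE 0.11, edgeR adjusted p = 1.32e-05). It was 1.73 after 7 days with 15 min of Dex (log2 0.79, SE 0.11, edgeR adjusted p = 2.57e-07) and 1.48 with 3 h of Dex (log2 0.56, SE 0.11, edgeR adjusted p = 0.000171). No replicates overlapped in these 4 comparisons, which called 2.69%, 6.03%, 15.6% and 11.1% of all genes. The order depends on the scaling. With total counts as the only scaling, the calls at 2 and 4 days were lost (log2 0.50 and 0.36). The log2 ratio with 15 min of Dex was -0.044, beside a median of -0.88 over all genes, and with 3 h of Dex it was -0.28, beside a median of -0.85. At 7 days without Dex the ratio was 1.44 as a description, and -0.54 on the log2 scale with total counts, beside a median of -1.07.

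Dex alone moved MDM2 little. At 15 min it was 1.02 times the untreated level (log2 0.03, SE 0.11, edgeR adjusted p = 0.994), in a comparison that called 1.26% of genes. At 3 h it was 1.28 times that level (log2 0.35, SE 0.11, edgeR adjusted p = 0.0357), where 10.5% of genes were called. The call at 3 h was lost when any 1 of the 4 libraries was left out (log2 0.29 to 0.42, adjusted p up to 0.266), with DESeq2 (adjusted p = 0.0927), without the filter (0.0673) and with total counts (0.132). After 7 days of MS023, 3 h of Dex gave a log2 change of 0.12 (SE 0.11, edgeR adjusted p = 0.548), and after GSK591 0.16 (SE 0.11, a description). The difference between the Dex response after MS023 and that without it was -0.23 on the log2 scale (SE 0.16, edgeR adjusted p = 0.714).

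An inhibitor given together with Dex for 3 h left MDM2 at 59.4 and 57.2 with GSK591 and at 61.2 and 65.0 with MS023. Both pairs lay just above Dex alone. Against Dex alone the log2 changes were 0.09 (SE 0.11, edgeR adjusted p = 0.978, 95% interval -0.13 to 0.31) and 0.20 (SE 0.11, edgeR adjusted p = 0.412, 95% interval -0.02 to 0.42). In the first comparison 0% of genes were called by edgeR, with 1306 at an unadjusted p under 0.05, and DESeq2 also called 0. In the second 0.196% were called.

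MDM4 passed the test in none of the 19 comparisons tested with TMM scaling. With total counts as the only scaling it was called higher against untreated cells after 2, 4 and 7 days of MS023 (log2 0.78, 0.69 and 1.40, beside medians of 0.68, 0.74 and 1.02 over all genes) and after MS023 and Dex against Dex (0.88 and 0.85, beside 0.55 and 0.85). Under that scaling it was called lower for GSK591 against MS023 with 15 min and 3 h of Dex (-1.05 and -1.27, beside -0.88 and -0.85). Its lowest group mean was 11.3 ± 3.09 (SD, n = 2) after 7 days of GSK591 and 3 h of Dex, and its highest were 20.3 ± 1.58 after 7 days of MS023 and 20.6 ± 0.868 after MS023 and 15 min of Dex. Untreated cells had 17.5 and 14.0. When the 15 groups are put in order of their mean, 12 of the 14 pairs of neighbours overlapped in MDM4, against 5 in MDM2 and 7 in CPM. The overlapping neighbours did not differ beyond their spread. Such overlap was not determined over all genes, so these counts are a description.

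The time course in GSK591 gave MDM4 levels of 12.6 and 16.0 on day 2, of 14.1 and 15.5 on day 4, and of 12.6 and 14.3 on day 7. All 3 groups overlapped the untreated libraries. The log2 changes were -0.13 (SE 0.18) and -0.08 (SE 0.18) at 2 and 4 days, with 95% intervals of -0.48 to 0.23 and -0.43 to 0.26, and -0.23 (SE 0.18) at 7 days as a description. After 7 days of MS023 MDM4 stood at 19.2 and 21.4, both above the untreated libraries (log2 0.37, SE 0.17, edgeR adjusted p = 0.138). That adjusted p was 0.0441 when only the groups compared entered the fit.

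The lowest adjusted p of MDM4 came with Dex after MS023. There MDM4 had 19.2 and 21.4 without Dex and 16.2 and 13.9 with 3 h of Dex, and the groups did not overlap. The log2 change was -0.43 (SE 0.16, edgeR adjusted p = 0.0797), where 11.1% of genes were called. It was -0.45 with adjusted p = 0.0483 without the filter and -0.42 with adjusted p = 0.0348 in a fit of the compared groups alone. After GSK591 and 3 h of Dex MDM4 had 9.15 and 13.5, against 12.2 and 17.5 with Dex alone (log2 -0.38, SE 0.19, edgeR adjusted p = 0.185) and 16.2 and 13.9 with MS023 and Dex (log2 -0.41, SE 0.18, edgeR adjusted p = 0.141). Without GSK591 and Dex replicate 2 these became -0.69 with adjusted p = 0.0489 and -0.72 with adjusted p = 0.0402.

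CPM had the widest range of the 3 genes. Untreated cells had 6.34 and 5.14. With GSK591 the day 2 libraries had 9.54 and 13.6, those of day 4 had 20.0 and 19.1, and those of day 7 had 45.8 and 54.3. No pair of successive times overlapped. The change against untreated cells was 2.03-fold at 2 days (log2 1.02, SE 0.20, edgeR adjusted p = 0.00102) and 3.41-fold at 4 days (log2 1.77, SE 0.19, edgeR adjusted p = 6.19e-10). At 7 days, the contrast by which CPM was chosen, it was 8.72-fold (log2 3.12, SE 0.18). All tests of CPM against untreated cells share the untreated libraries with that contrast. This includes those with MS023 and with Dex alone below, so these tests are not independent of the choice. The 2-day call was lost without GSK591 2-day replicate 2 (log2 0.73, adjusted p = 0.131).

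In libraries outside the contrast by which CPM was chosen, it stood at 53.7 and 43.3 after GSK591 and 15 min of Dex, against 6.12 and 6.70 with Dex alone. The choice was made with results of these data known, so these libraries are no independent evidence either. After GSK591 and 3 h of Dex it reached 86.9 and 101, its highest level, against 8.18 and 13.6 with Dex alone. These were differences of 7.52-fold (log2 2.91, SE 0.17, edgeR adjusted p = 5.85e-18) and 8.72-fold (log2 3.12, SE 0.16, edgeR adjusted p = 1.45e-20), and no replicates overlapped. Both CPM and MDM2 were thus called higher in each of the GSK591 pretreatment comparisons.

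With MS023, CPM stood at 2.44 and 3.60 on day 2, at 7.18 and 6.91 on day 4, and at 11.3 and 10.6 on day 7. The 2-day libraries were the lowest of all 30. CPM fell at 2 days to 0.532 times the untreated level (log2 -0.91, SE 0.24, edgeR adjusted p = 0.0103), differed by log2 0.30 at 4 days (SE 0.20, edgeR adjusted p = 0.358) and rose 1.91-fold at 7 days (log2 0.93, SE 0.19, edgeR adjusted p = 0.000499). The 2-day fall rests on 25 and 39 counts. It was not called without untreated replicate 1 (log2 -0.76, adjusted p = 0.151), without MS023 2-day replicate 1 (log2 -0.68, adjusted p = 0.192) or with total counts (log2 -0.24, adjusted p = 0.533). After 7 days of MS023 and Dex, CPM was 1.78 times the level of Dex alone at 15 min (log2 0.83, SE 0.19, edgeR adjusted p = 0.0014) and 2.00 times at 3 h (log2 1.00, SE 0.17, edgeR adjusted p = 2.52e-05).

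The difference between the inhibitors was larger for CPM than its spread at each time. GSK591 exceeded MS023 3.82-fold at 2 days (log2 1.94, SE 0.22, edgeR adjusted p = 5.96e-08) and 2.77-fold at 4 days (log2 1.47, SE 0.17, edgeR adjusted p = 1.23e-08). It did so 4.23-fold with 15 min of Dex (log2 2.08, SE 0.15, edgeR adjusted p = 4.14e-14) and 4.36-fold with 3 h of Dex (log2 2.12, SE 0.14, edgeR adjusted p = 2.26e-15). The calls were kept under each alternative scaling of the count table, total counts included. In the authors' deposited comparisons against untreated cells, described below, the inhibitors lay closer for CPM at each of these times. GSK591 and MS023 had log2 values of -0.33 and -0.63 at 2 days and of 0.50 and -0.30 at 4 days. They had 0.52 and -0.21 with 15 min of Dex, and 1.95 and 1.67 with 3 h of Dex.

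CPM was also higher after 3 h of Dex. In untreated cells it went from 6.34 and 5.14 to 8.18 and 13.6, with no overlap (log2 0.91, SE 0.20, edgeR adjusted p = 0.00126). That call was lost without untreated replicate 2 (log2 0.76, adjusted p = 0.0578) and without Dex 3 h replicate 2 (log2 0.52, adjusted p = 0.230). After 7 days of MS023 it went from 11.3 and 10.6 to 21.9 and 21.2 (log2 0.98, SE 0.15, edgeR adjusted p = 4.96e-06), and after GSK591 from 45.8 and 54.3 to 86.9 and 101 (log2 0.91, SE 0.14, a description). In the count table the fold changes of 1.88, 1.97 and 1.88 lie close together although the starting levels differ. They lie further apart in the authors' deposited log2 values against untreated cells, described below. Those gave 0.70 for 3 h of Dex alone. With 3 h of Dex they went from -0.51 to 1.67 after MS023 and from 0.66 to 1.95 after GSK591. The test of the difference for MS023 gave log2 0.07 (SE 0.26, edgeR adjusted p = 0.967, 95% interval -0.43 to 0.57), in a test that called 0.223% of genes. At 15 min of Dex CPM differed by log2 0.16 (SE 0.22, edgeR adjusted p = 0.972), and neither inhibitor given with Dex for 3 h moved it past the test (log2 0.03, SE 0.18, and -0.25, SE 0.19).

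**Figure D3:**
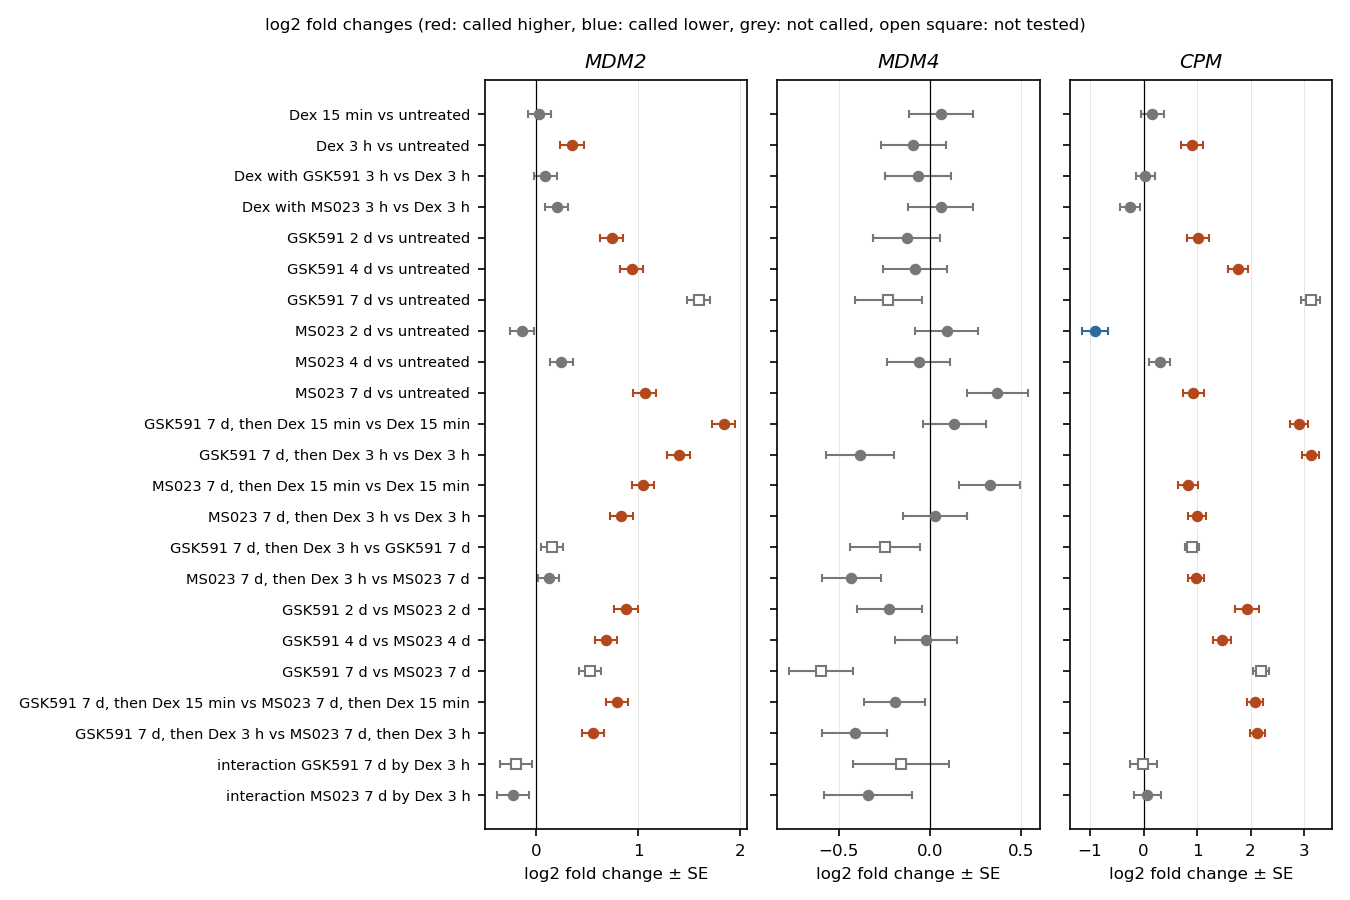
log2 fold changes with standard errors of MDM2, MDM4 and CPM in 19 tested comparisons (circles) and 4 given as a description (open squares); red is called higher, blue called lower and grey not called, and the 3 panels have different axes. With TMM scaling MDM4 has no called value, and CPM has 1 called fall, after 2 days of MS023.

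The ratio of 2 genes within a library does not depend on how libraries are scaled. CPM had 14.6 and 12.1 counts per 100 MDM2 counts in untreated cells, 13.2 and 19.0 after 2 days of GSK591, 25.1 and 22.5 after 4 days and 40.7 and 36.9 after 7 days. It reached 66.8 and 63.5 after GSK591 and 3 h of Dex, and stood at 35.0 and 26.9 with 15 min of Dex. The ratio overlapped that of untreated cells at 2 days and lay above it from 4 days on. In MS023 the ratio was 6.33 and 9.15 on day 2, 15.3 and 12.6 on day 4, and 12.3 and 12.0 on day 7. On day 7 it overlapped that of untreated cells, as CPM and MDM2 were 1.91 and 2.09 times their untreated levels. With MS023 and 3 h of Dex it was 22.5 and 21.5, near that of 3 h of Dex alone at 15.6 and 23.7.

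MDM4 per 100 MDM2 counts moved the other way. It was 40.2 and 33.1 in untreated cells, 17.5 and 22.4 after 2 days of GSK591, 17.7 and 18.3 after 4 days and 11.2 and 9.75 after 7 days. It reached its lowest values, 7.03 and 8.50, after GSK591 and 3 h of Dex. In MS023 the libraries of day 2 had 43.0 and 43.0, those of day 4 had 32.6 and 26.8, and those of day 7 had 21.0 and 24.3. The ratio was lowest in the 3 groups with 7 days of GSK591, which had the highest MDM2, and MDM4 itself was not called in any comparison with TMM scaling.

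**Figure D4:**
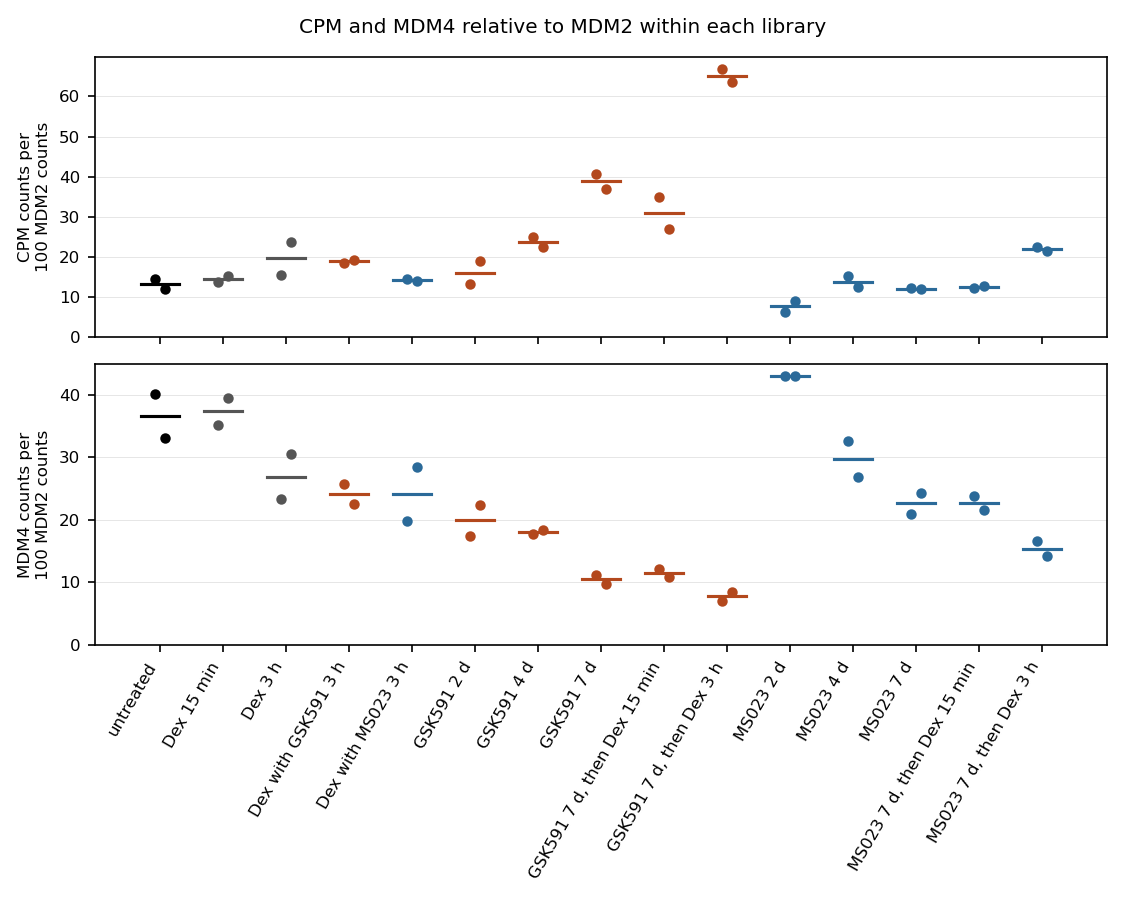
CPM and MDM4 counts per 100 MDM2 counts within each library (linear axes from 0), with 1 point per replicate and a line at the group mean. In the count table CPM rises from a mean of 13.4 in untreated cells to 65.1 after GSK591 and 3 h of Dex, where MDM4 falls from 36.6 to 7.77. The authors' deposited log2 values for that group against untreated cells put CPM (1.95) below MDM2 (2.22).

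The authors also deposited comparisons of 14 groups against untreated cells, and these hold MDM2 and CPM. They gave another picture for CPM. For MDM2 the authors' deposited values had the same sign as the ratio of group means in the count table in all 14 comparisons, and the 2 differed by -0.46 to 0.03 on the log2 scale. For CPM the sign was opposite in 4 of the 14, and the count table exceeded the authors' value by a median of 0.90 and by up to 2.56. MDM4 was not analysed in these tables.

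The 2 sources lay close for CPM in the 4 groups with Dex and no long pretreatment. With 3 h of Dex the authors' deposited log2 fold change was 0.70 (adjusted p = 0.00436), against 0.92 in the count table. They were also close after 2 days of MS023, at -0.63 (adjusted p = 0.0201) in the authors' deposited table and -0.93 in the count table. They were further apart in all groups with GSK591 for 2 days or longer. After 2 days of GSK591 the authors' deposited table gave -0.33 (adjusted p = 0.143) against 1.01 in the count table, and after 4 days 0.50 (adjusted p = 0.0401) against 1.77. At day 7 it gave 0.66 against 3.12, and with 15 min of Dex after that 0.52 (adjusted p = 0.0367) against 3.08. After 7 days of MS023 the authors' deposited value was a fall, -0.51 (adjusted p = 0.0436), where the count table had 0.93.

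With a long pretreatment and 3 h of Dex, the authors' deposited values of CPM were 1.95 (adjusted p = 2.23e-18) after GSK591 and 1.67 (adjusted p = 5.08e-14) after MS023, against 4.03 and 1.91 in the count table. Every group with 3 h of Dex has a positive CPM value in both.

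The mean level also differed. The authors' mean for CPM was 92.7 normalised counts, against a mean count of 205 in the count table, a ratio of 0.452. For MDM2 it was 1494 against 833, a ratio of 1.79. Over 12817 protein-coding genes in both sources the ratio had a median of 1.51 and quartiles of 0.702 and 3.19, and 15.4% of these genes had a lower ratio than CPM. How the authors' tables were counted, and whether either count used strand, is not given in the sources used here, and the cause of the difference was not tested. Without strand, reads from MDM2 and from CPM cannot be told apart where their exons overlap. Whether reads from transcription past the annotated end of MDM2 were counted in the longest CPM exon block, which begins 489 bases beyond that end, was not tested.

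**Figure D5:**
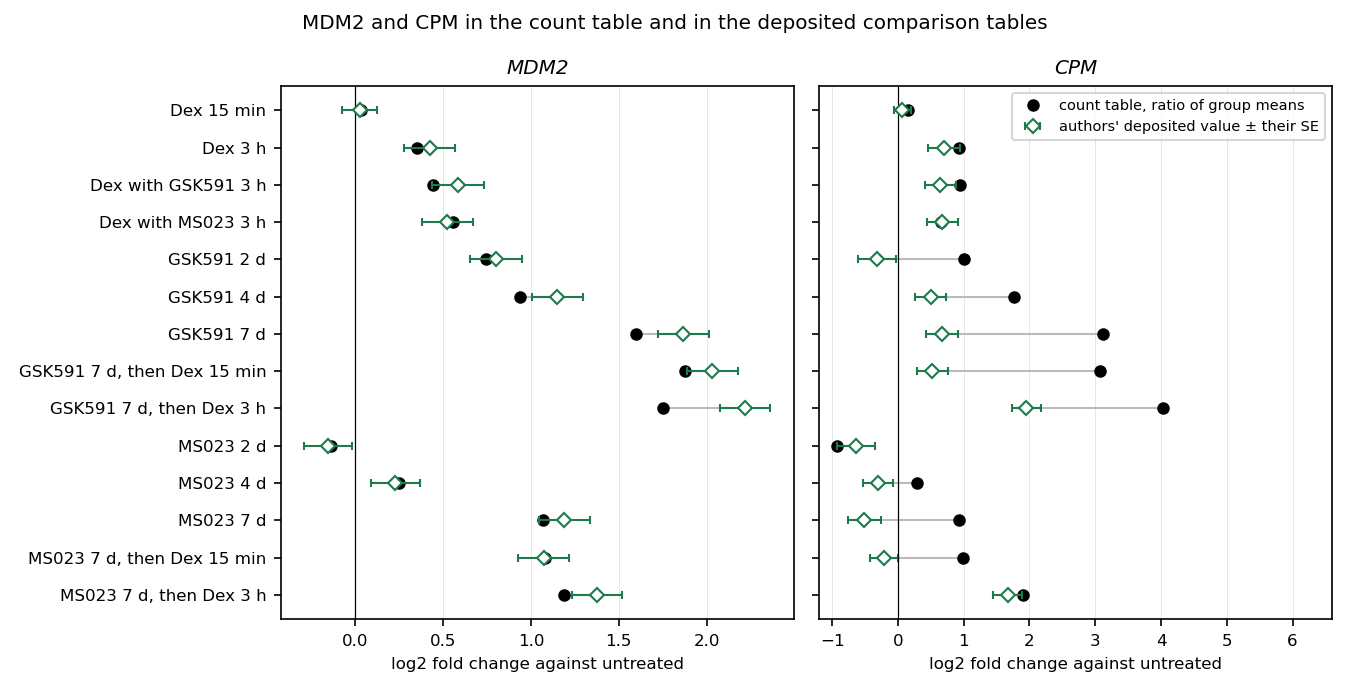
log2 fold change against untreated cells of MDM2 and CPM in 14 groups, as the ratio of group means in the count table (black circles) and as the authors' deposited value with its standard error (open green diamonds). The sources differ by -0.46 to 0.03 for MDM2 and by up to 2.56 for CPM, in the group with 7 days of GSK591 and 15 min of Dex.

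SLC35E3 and CPSF6, which flank the pair, were not called higher in any comparison against untreated cells or Dex alone. SLC35E3, a putative transporter gene that ends 14212 bases before MDM2 on the same strand, had 40.9 and 38.9 in untreated cells and 29.7 and 30.4 after 4 days of GSK591, a fall (log2 -0.41, SE 0.11, edgeR adjusted p = 0.00699). It also fell after 7 days of MS023 (log2 -0.43, SE 0.11, edgeR adjusted p = 0.00469) and was not called after GSK591 and 3 h of Dex (log2 0.14, SE 0.11). With 3 h of Dex after 7 days of MS023, SLC35E3 went from 29.8 and 29.3 to 36.7 and 38.3. After 7 days of GSK591 it went from 32.5 and 36.7 to 47.2 and 48.0. No replicates overlapped in either, and the libraries of GSK591 and Dex lay above those of MS023 and Dex. CPSF6, a subunit of the mRNA 3′-end cleavage machinery and the next gene beyond CPM to pass the filter, was called in none of the comparisons tested, with a log2 change of -0.12 (SE 0.29) after GSK591 and 3 h of Dex against Dex. Within 500 kb of MDM2 and CPM, 15 other genes were tested. Of these, 1 was called higher and 3 lower after 4 days of GSK591, beside 8.91% and 8.28% of all genes. After GSK591 and 3 h of Dex 3 were called higher and 3 lower, beside 6.2% and 7.36%.

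Among the genes inside MDM2 itself, AC025423.1, a noncoding gene within an MDM2 intron on the same strand, had 8 and 5 counts in untreated cells and 45 and 51 after GSK591 and 3 h of Dex. It was higher there than in Dex alone (22 and 15 counts, log2 1.36, SE 0.34, edgeR adjusted p = 0.00362), and reads from it and from MDM2 pre-mRNA share that stretch. AC025423.2 and AC025423.4, whose exons lie wholly inside the longest MDM2 exon block, had 0 counts in all 30 libraries. How reads that fall in more than 1 gene were counted is not given, so these zeros do not show an absence of transcription. PRELID2P1, a pseudogene that overlaps a CPM exon, had at most 3 counts. At the MDM4 locus, PIK3C2B (a phosphoinositide kinase) was called higher after 4 days of GSK591 (log2 0.47, SE 0.14, edgeR adjusted p = 0.0171) and LRRN2 lower with Dex after MS023 (log2 -0.63, SE 0.21, edgeR adjusted p = 0.0436).

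Of 30 p53 targets listed without MDM2, all of which were tested, 11 were called higher and 0 lower after 2 days of GSK591, where 5.64% of all genes were called in either direction. After 4 days 12 were higher and 1 lower, beside 8.91% and 8.28% of all genes. After GSK591 and Dex against Dex alone, 16 were higher and 0 lower at 15 min, where 15.3% of all genes were called, and 12 and 0 at 3 h, beside 6.2% and 7.36%. Their median log2 change at 3 h was 0.36, against 0.01 over all genes. The list was chosen with results of these data known, so it is no independent evidence of direction.

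The 4 targets with the largest rise in the 3 h comparison were FAS, a death receptor (log2 1.49, SE 0.27), SPATA18, a mitochondrial quality control gene (1.48, SE 0.24), BTG2, an antiproliferative gene (1.41, SE 0.15), and EDA2R, a TNF receptor family member (1.23, SE 0.31), with edgeR adjusted p of 7.80e-05, 1.19e-05, 1.01e-08 and 0.00375. CDKN1A, the cyclin-dependent kinase inhibitor p21, had 10.3 and 11.1 in untreated cells, 31.5 and 30.6 with 3 h of Dex and 56.0 and 55.6 after GSK591 and Dex. It was called higher in the last against Dex alone (log2 0.84, SE 0.13, edgeR adjusted p = 3.95e-06), and already with Dex alone against untreated cells (log2 1.53, SE 0.15, edgeR adjusted p = 3.62e-11). In the count table MDM2 at 1.40 was in the range of the largest rises. CPM, which was chosen by its rise in GSK591, was above them at 3.12. The authors' deposited log2 values against untreated cells gave another order. From Dex alone to GSK591 and Dex they went from 0.42 to 2.22 for MDM2 and from 0.70 to 1.95 for CPM. PPM1D (log2 0.25, SE 0.14) and CCNG1 (log2 -0.23, SE 0.19), which belong to the same feedback circuit, did not pass in that comparison.

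With MS023 the same list had 3 genes higher and 3 lower on day 2, where 10.4% of all genes were called, then 4 and 0 on day 4, where 14.2% were. The day 4 count is near that share. On day 7, when MDM2 was called higher, it had 12 and 1, where 13.6% of all genes were called. After MS023 and 3 h of Dex against Dex alone 8 were higher and 2 lower, beside 5.43% and 6.11% of all genes. CDKN1A was called higher at 7 days (log2 0.64, SE 0.15, edgeR adjusted p = 0.00249) but not after Dex (log2 0.17, SE 0.13, edgeR adjusted p = 0.452). With 3 h of Dex alone 9 of the targets were called higher and 3 lower, where 10.5% of all genes were called.

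Of 20 listed regulators of MDM2 and MDM4, 18 were tested. After 4 days of GSK591 1 was called higher and 4 lower, beside 8.91% and 8.28% of all genes. After GSK591 and 3 h of Dex against Dex 0 were higher and 2 lower, a share near the 13.6% of all genes called. The 2 lower genes in the last were RPL11 (log2 -0.81, SE 0.20, edgeR adjusted p = 0.00609) and RPL23 (log2 -0.49, SE 0.12, edgeR adjusted p = 0.0031), ribosomal proteins that bind and inhibit MDM2. USP7, a deubiquitinase of MDM2 and p53, differed by log2 -0.23 (SE 0.29) in the same comparison. CDKN2A, which encodes the MDM2 inhibitor ARF and is deleted in A549 cells, had at most 3 counts in a library. PRMT5, the target of GSK591, had a log2 change of -0.43 (SE 0.20) after 4 days and 0.31 (SE 0.22) after GSK591 and 3 h of Dex, and passed in neither.

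Of 7 regulatory carboxypeptidases, CPD, CPE and AEBP1 passed the filter. After GSK591 and 3 h of Dex against Dex alone AEBP1 was called lower (log2 -0.54, SE 0.15, edgeR adjusted p = 0.00841), while CPD differed by log2 0.34 (SE 0.14, edgeR adjusted p = 0.0978) and CPE by 0.46 (SE 0.61, edgeR adjusted p = 0.698).

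The likeness of courses over the 15 group means is a description, since the means share libraries and scaling. In the count table MDM2 and CPM had a Pearson r of 0.93, MDM2 and MDM4 of -0.11, and MDM4 and CPM of -0.43. The authors' deposited log2 values of MDM2 and CPM had opposite signs after 2 days of GSK591 (0.80 and -0.33). They also did after 4 days (0.23 and -0.30) and 7 days of MS023 (1.19 and -0.51), and with 15 min of Dex after it (1.07 and -0.21). In the other groups the signs were the same. Genes with a course most like MDM2 included MIR34AHG (r 0.960), the host of the p53-induced miRNA miR-34a, RPS27L (0.951) and SPATA18 (0.936), the last 2 of which are on the p53 target list. For CPM they were CASTOR1 (0.946), EMD (0.944), AC008079.1 (0.943) and C1R (0.928), and for MDM4 TVP23C (0.916), EFNA5 (0.901), IFNAR1 (0.882) and BNIP2 (0.880). By Spearman's rho, none of the 4 genes most like CPM was the same.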

How the data were processed

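A deposited table of gene counts for 30 PRO-seq libraries and deposited tables of comparisons were used. The counts deposited by the authors are whole numbers per gene, made with Subread featureCounts 2.0.1 on hg38 per the submitters' processing notes; feature type and strand setting are not given in the sources used here. The authors' 14 comparison tables hold a mean signal (baseMean), log2 fold changes with standard errors, and p-values, and per the file headers their columns are those of DESeq2. All 58780 gene identifiers matched GENCODE 29, and promoter sequences are from RefSeq (GRCh38.p14).

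Groups came from the labels. Counts were fitted with edgeR 4.0.16 (R 4.3.3, limma 3.58.1): filterByExpr (minimum count 10, minimum total 15), TMM scaling and a robust quasi-likelihood fit of all 15 groups, with 15 residual degrees of freedom, adjusted by Benjamini-Hochberg in each comparison (threshold 0.05). The common biological coefficient of variation was 10.6%. Standard errors were taken as log2 fold change divided by the root of the F statistic, or for the interaction the combined errors of its 2 parts. The 95% intervals are the value plus or minus 1.96 standard errors. Levels are TMM-scaled counts-per-million values. The ratio of group means against untreated cells was set beside the authors' log2 values with no test.

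The members and lists (p53 targets, regulators of MDM2 and MDM4, carboxypeptidases, cell type markers) were chosen with earlier results of these data known. Named genes are the members, genes whose exons overlap them, the nearest tested genes within 500 kb, 7 set genes of the circuit, the 4 largest called rises and falls (none fell) among p53 targets after GSK591 and 3 h of Dex against Dex, and the 4 genes most like each member by Pearson r among genes with a mean counts-per-million level of at least 5. Of these, 2 genes are not reported here. The fit was tested on simulated data. Alternatives were DESeq2 size factors, total counts, no filter, DESeq2 1.42.0, the compared groups alone, a replicate block, no mitochondrial or ribosomal RNA genes, and leaving out each library.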

Additional observations from a re-analysis of the deposited data

How the results depend on the processing

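Of the 26 called values of the 3 genes, all kept their direction and call with DESeq2 size factors, with only the compared groups, without mitochondrial and ribosomal RNA genes and with the replicate number as a block. The block, fitted for each comparison, also changed none of the 31 values not called (in MDM2 after 4 days of GSK591 it gave log2 0.94). Same-numbered replicates are not paired by the labels, and over 105 pairs of groups their deviations correlated at -0.45 to 0.48 (median 0.02). MDM2 with 3 h of Dex lost its call without the filter (0.35) and with DESeq2 (0.36). MDM4 gained a call after 7 days of MS023 with only the compared groups (0.37) and with Dex after MS023 without the filter (-0.45) or with only those groups (-0.42).

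Total counts as the only scaling moved the median of all genes by -1.07 (GSK591 against MS023 at 7 days) to 1.02 (7 days of MS023 against untreated cells), so changes under it are to be read against that shift. Calls were lost for MDM2 with 3 h of Dex (0.53) and for GSK591 against MS023 at 2 days (0.50) and 4 days (0.36), and for CPM after 2 days of MS023 (-0.24). MDM2 turned to 0.54 (called) after 2 days of MS023, and for GSK591 against MS023 to -0.54 at 7 days, -0.044 with 15 min of Dex and -0.28 with 3 h. MDM2 and CPM gained calls after 4 days of MS023 (0.99 and 1.05). MDM4 turned to 0.11 with 3 h of Dex, 0.024 with GSK591 beside Dex, 0.18 and 0.34 after 2 and 4 days of GSK591, 0.69 (called) after 4 days of MS023 and -0.16 after GSK591 and 15 min of Dex. It gained calls after 2 and 7 days of MS023 (0.78 and 1.40), with Dex after MS023 against Dex (0.88 and 0.85 at 15 min and 3 h) and for GSK591 against MS023 with Dex (-1.05 and -1.27). CPM turned to 0.041 for MS023 beside Dex and to -0.14 in the interaction of MS023 and Dex. The cause was not tested.

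Leaving out 1 library gave 0.29 to 0.42 for MDM2 and 0.52 to 1.25 for CPM with 3 h of Dex, 0.73 to 1.25 for CPM after 2 days of GSK591 and -1.23 to -0.68 after 2 days of MS023, all with lost calls. The MDM2 interaction of GSK591 and Dex ran from -0.38 to 0.0028. Values not called that changed sign or gained a call ran, for CPM, from -0.30 to 0.43 and -0.59 to 0.14 with GSK591 or MS023 beside Dex and from -0.26 to 0.46 in the interaction. For MDM4 they ran from -0.090 to 0.23 with 15 min and -0.36 to 0.16 with 3 h of Dex, -0.31 to 0.21 and -0.28 to 0.33 with GSK591 or MS023 beside Dex, -0.32 to 0.035 and -0.23 to 0.082 after 2 and 4 days of GSK591, -0.057 to 0.26 and -0.21 to 0.11 after 2 and 4 days of MS023, -0.69 to -0.12 and -0.21 to 0.30 with Dex after GSK591 or MS023 against Dex, and -0.094 to 0.038 and -0.72 to -0.16 for GSK591 against MS023 at 4 days and with 3 h of Dex.

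Counts of called genes varied more than the members. After 7 days of MS023 3127 genes were called, and 1525 without untreated replicate 1 and 16196 with total counts. For MS023 beside Dex 45 were called, and 0 to 2388 under the alternatives. MDM4, at 83 to 296 counts, and CPM after 2 days of MS023, at 25 and 39, limit what these libraries can show.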
